A study of Homo sapiens with 2 samples.

Results

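The genes described here encode cell surface antigens that serve as imaging or therapy targets in prostate cancer, and they were chosen by name from a list of 9: FOLH1, STEAP1, STEAP2, STEAP4, PSCA, CD276, TMEFF2, CEACAM5 and DLL3. All 9 were on the array among 19775 named genes, through 18 probe sets annotated to 1 of them alone. A further 3 probe sets are annotated to both FOLH1 and FOLH1B. The tested line was C4-2B-MDVR, an enzalutamide-resistant human prostate cancer line that was derived from C4-2B by long culture with the drug, and the line set against it was the enzalutamide-sensitive parent C4-2B. Enzalutamide is an antiandrogen that blocks androgen receptor signalling. Both lines were grown in the same medium with complete serum, received no treatment before RNA isolation, and were measured on 1 Affymetrix expression array each. The comparison was made to identify genes that underlie the drug resistance. The title, source and cell line labels name C4-2B-MDVR, but the free-text descriptions call the resistant sample docetaxel-resistant TaxR cells and the parent docetaxel-sensitive. The cell line labels were followed, so every direction refers to the arrays labelled C4-2B-MDVR and C4-2B.

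Each line has 1 array and so no replicate spread, which means that no p-value or error can be given and each difference describes these 2 arrays. Values are the deposited intensities on a linear scale, and each difference is the log2 value of C4-2B-MDVR minus that of C4-2B. The detection floor of an array was its median intensity, 43.5 for C4-2B-MDVR and 41.9 for C4-2B, which the brighter of both values had to reach, and a gene with several probe sets was represented by the one with the highest mean. Levels of different probe sets cannot be set against each other, because probes differ in how well they bind. The only measure of disagreement was the SD of the log2 difference across the probe sets of a gene. It was taken over 5727 genes with several probe sets above the floor on both arrays. Its median was 0.19 on the log2 scale. The labelled cell type was checked by luminal prostate markers, of which 8 of 8 were above the floor, summing to an intensity of 13117 in C4-2B-MDVR and 23377 in C4-2B. Of these KLK3 (−5.61, probe sets from −6.24 to −0.35) and KLK2 (−2.10, probe sets from −2.37 to −0.88) were 2-fold or more lower. KLK3 had 171.6 in C4-2B-MDVR, against 8379 in C4-2B, which made up most of the drop in the sum. The other 6 were within 2-fold, though another FOXA1 probe set above the floor was at −1.18. Of the measured markers 2 of 3 basal, 2 of 5 fibroblast and 2 of 5 blood and endothelial ones were above the floor, each within 2-fold, though the basal marker ITGB4 was at 1.09 with its next brightest probe set. Summed over all measured markers of each type, also those under the floor, intensities were 129.0, 170.8 and 210.6 in C4-2B-MDVR, against 126.8, 164.1 and 203.5 in C4-2B. The leukocyte marker PTPRC and the collagens COL1A2 and COL3A1 were under the floor on both arrays. The part of any other cell type in the differences below was not tested.

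Surface antigens are useful as targets when tumour cells carry many copies and most other tissues carry few. An antibody, a small ligand or an engineered T cell that binds the antigen can then bring an isotope, a toxin or an immune attack to the tumour. FOLH1, the gene for prostate-specific membrane antigen (PSMA), is the best known of them in prostate, and androgen signalling is known to hold its expression down. The STEAP genes encode six-transmembrane metalloreductases and their relatives, PSCA a small glycolipid-anchored protein, CD276 the immune checkpoint-family protein B7-H3, and CEACAM5 carcinoembryonic antigen. DLL3 is a Notch ligand that marks neuroendocrine tumours. RNA was measured here, not protein at the cell surface.

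PSCA was the gene of the 9 that differed most, STEAP2 and STEAP1 were lower by less than 2-fold, and the probe sets for FOLH1 and CD276 were somewhat higher in C4-2B-MDVR. Of the 9 genes 7 were above the floor, and STEAP4 and TMEFF2 were under it in every probe set on both arrays. Of the 7, 1 (PSCA) was 2-fold or more lower and 0 were 2-fold or more higher. The background is the 13437 named genes that passed the same floor, of which 3.50% were lower by this measure and 3.17% higher. At 1.5-fold, 3 of the 7 were lower (PSCA, STEAP2 and STEAP1) and 0 higher, beside 9.32% of all genes lower and 8.26% higher. At 3-fold PSCA was still counted as lower and 0 were higher, beside 1.20% of all genes lower and 1.45% higher. In all, 3 of the 7 differences were above 0 and 4 below it. Their median was −0.29, beside 0.041 over the 13437 genes. This median is the DLL3 value, and with the mean of each gene's probe sets DLL3 lay above 0 and the median of the 7 was 0.086, so neither has a settled sign.

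**Figure D1:**
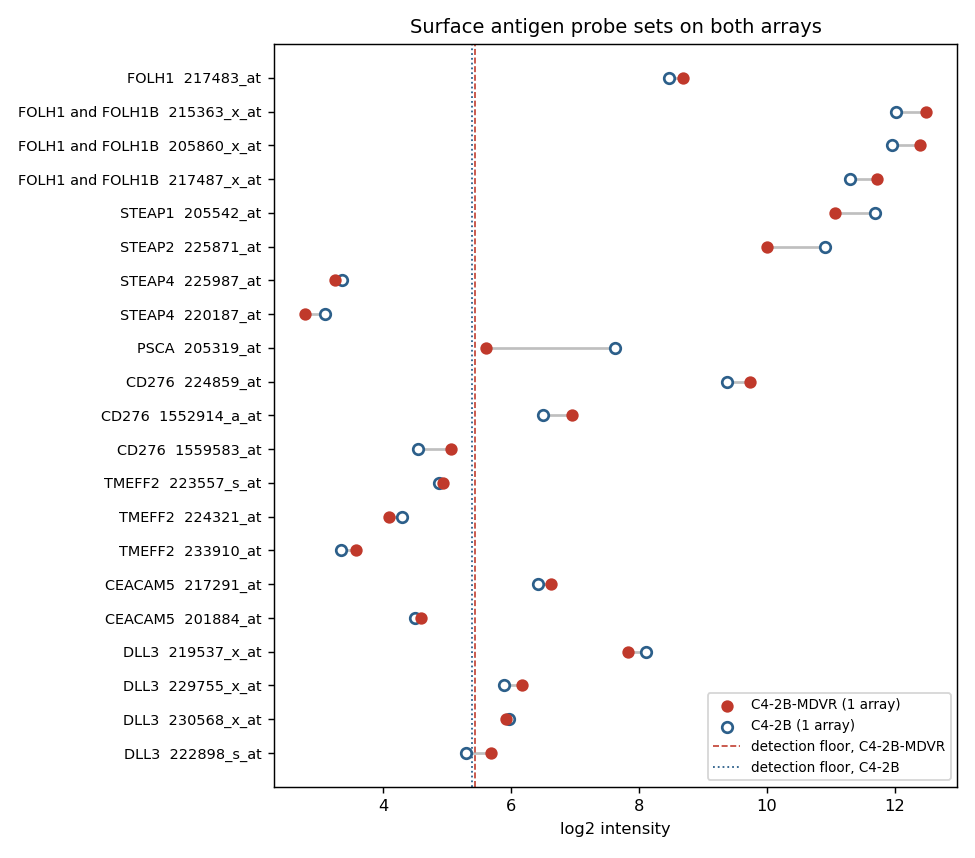
Log2 intensity of each surface antigen probe set, with C4-2B-MDVR as filled and C4-2B as open circles (1 array each) and each array's detection floor as a vertical line. The PSCA points lie 2.02 apart with the C4-2B-MDVR point just above the floor, while all STEAP4 and TMEFF2 points lie under it. Only the 2 points of a row can be compared.

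FOLH1 encodes a membrane-bound peptidase that removes glutamate from folate chains in the gut and from the neuropeptide N-acetylaspartylglutamate in brain. Its own probe set, 217483_at, had an intensity of 413.1 in C4-2B-MDVR, against 356.0 in C4-2B. The difference was 0.21 (1.16-fold higher), and 29.6% of all genes above the floor were as high or higher. The 3 probe sets annotated to both FOLH1 and its near-identical relative FOLH1B were brighter and differed by more. Probe set 215363_x_at had 5771 in C4-2B-MDVR and 4171 in C4-2B (0.47), and 205860_x_at had 5387 in C4-2B-MDVR and 3989 in C4-2B (0.43). The third, 217487_x_at, had 3382 in C4-2B-MDVR and 2534 in C4-2B (0.42). The probe set annotated to FOLH1B alone, 211303_x_at, had 1990 in C4-2B-MDVR and 1426 in C4-2B (0.48). All 5 readings were therefore higher in C4-2B-MDVR, from 0.21 to 0.48, and all were within 2-fold. The ending _x_at marks probe sets whose probes may also bind other transcripts, so signal from FOLH1 and FOLH1B cannot be told apart in them and the readings are not separate measurements.

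STEAP1 and STEAP2 lie next to each other on chromosome 7, with 0 other named coding genes between them, and both were lower in C4-2B-MDVR. STEAP1, a membrane protein of prostate epithelium and a target of antibodies and cell therapies, had 2143 in C4-2B-MDVR, against 3325 in C4-2B. The difference was −0.63 (1.55-fold lower), and 8.19% of all genes were as low or lower. STEAP2, a metalloreductase that reduces iron and copper for uptake, had 1029 in C4-2B-MDVR, against 1915 in C4-2B. The difference was −0.90 (1.86-fold lower), and 4.38% of all genes were as low or lower. Each of these genes has 1 probe set with its symbol, so neither value has a second reading. STEAP4, also a metalloreductase and one that is prominent in fat and inflammation, lies on the same chromosome, with 2 named coding genes between it and STEAP1. Its probe set 225987_at had 9.50 in C4-2B-MDVR and 10.3 in C4-2B, and 220187_at had 6.88 in C4-2B-MDVR and 8.58 in C4-2B. No direction is given for STEAP4, because values under the floor have no order.

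The sequences upstream of these STEAP genes are shown because STEAP1 and STEAP2 were lower together while their relative STEAP4 was under the floor. They are the 250 bases before the gene start in RefSeq (GRCh38.p14), read 5′ to 3′ on the gene's strand, at chr7:90154219-90154468 (plus strand) for STEAP1, chr7:90211490-90211739 (plus strand) for STEAP2 and chr7:88306895-88307144 (minus strand) for STEAP4. For STEAP2, the first of 2 starts in the table is shown. Capitals mark the motifs found.
STEAP1: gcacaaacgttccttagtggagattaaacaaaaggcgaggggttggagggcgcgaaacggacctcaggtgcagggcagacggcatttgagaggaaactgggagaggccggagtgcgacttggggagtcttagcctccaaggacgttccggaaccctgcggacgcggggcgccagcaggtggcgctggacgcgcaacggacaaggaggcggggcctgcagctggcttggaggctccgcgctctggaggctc
STEAP2: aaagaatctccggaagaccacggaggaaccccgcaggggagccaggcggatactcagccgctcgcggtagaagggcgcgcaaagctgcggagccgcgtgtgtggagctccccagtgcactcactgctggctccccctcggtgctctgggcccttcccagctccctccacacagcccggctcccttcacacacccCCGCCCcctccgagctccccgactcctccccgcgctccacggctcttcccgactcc
STEAP4: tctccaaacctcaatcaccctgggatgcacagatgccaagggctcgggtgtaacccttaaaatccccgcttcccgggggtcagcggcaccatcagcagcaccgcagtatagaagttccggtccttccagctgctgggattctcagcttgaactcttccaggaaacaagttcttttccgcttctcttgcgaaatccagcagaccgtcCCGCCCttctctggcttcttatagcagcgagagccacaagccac

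The motifs searched, on both strands of these windows, were GGGCGG (the GC box), CCAAT (the CCAAT box), TATAAA (the TATA box), AGAACA (an androgen response half-site) and CACGTG (an E-box), and none of the matches overlapped. The STEAP2 and STEAP4 windows each held 1 GC box, which starts 56 bases before the STEAP2 start and 44 bases before the STEAP4 start. The STEAP1 window held 0 exact matches of these letters, and near forms of a motif were not searched. The window of the other STEAP2 start (chr7:90213570-90213819) differed from the one shown, with 0 GC boxes, 2 CCAAT boxes, 1 TATA box and a GC content of 32.8%. Over all 35116 promoter windows of the same length in the table, 42.6% held GGGCGG, 32.0% CCAAT, 10.7% TATAAA, 12.4% AGAACA and 6.34% CACGTG. GC content was 64.4% for STEAP1, 69.6% for the STEAP2 window shown and 55.6% for STEAP4, and the median over all windows was 58%. A match is a description of the letters and says nothing of binding, and the lack of a match covers this window alone. Promoter windows were matched for 6 of the 9 genes.

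PSCA, a small glycolipid-anchored protein of the Ly6 family that is found in prostate, bladder and stomach epithelium, had 48.6 in C4-2B-MDVR, against 197.1 in C4-2B. The difference was −2.02 (4.05-fold lower), and 96 of 13437 genes (0.714%) were as low or lower. The value in C4-2B-MDVR is 48.6 beside a floor of 43.5, so the measured difference rests on a value near the floor. PSCA has 1 probe set, 205319_at, and no second reading.

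CD276 (B7-H3), a surface protein of the B7 family that dampens T cell responses and is carried by many solid tumours, had 856.4 in C4-2B-MDVR, against 662.0 in C4-2B. The difference was 0.37 (1.29-fold higher), and 16.7% of all genes were as high or higher. Its other probe set above the floor, 1552914_a_at, had 124.3 in C4-2B-MDVR and 90.7 in C4-2B (0.45). The third, 1559583_at, had 33.3 in C4-2B-MDVR and 23.5 in C4-2B, under the floor on both arrays. Both CD276 probe sets above the floor were thus higher in C4-2B-MDVR, by similar amounts.

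CEACAM5 (carcinoembryonic antigen), a glycolipid-anchored adhesion protein of gut epithelium and of some neuroendocrine prostate tumours, had 1 of 2 probe sets above the floor. Probe set 217291_at had 99.2 in C4-2B-MDVR and 86.1 in C4-2B, a difference of 0.20 (1.15-fold). Probe set 201884_at had 24.2 in C4-2B-MDVR and 22.5 in C4-2B, under the floor on both arrays. The 2 probe sets therefore lie on opposite sides of the floor, which is the array median and does not itself show whether a gene is detected. TMEFF2, a transmembrane protein with follistatin domains that is found in prostate and brain, had 30.5, 17.2 and 11.9 in C4-2B-MDVR for its 3 probe sets, against 29.2, 19.6 and 10.2 in C4-2B. All were under the floor, and no direction is given.

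DLL3, an inhibitory Notch ligand of neuroendocrine tumour cells, had no single direction across its 4 probe sets. The brightest, 219537_x_at, had 226.5 in C4-2B-MDVR and 276.1 in C4-2B, a difference of −0.29 (1.22-fold lower), with 20.7% of all genes as low or lower. Probe set 229755_x_at had 71.9 in C4-2B-MDVR and 59.2 in C4-2B (0.28), and 230568_x_at had 61.0 in C4-2B-MDVR and 62.8 in C4-2B (−0.041). The fourth, 222898_s_at, had 51.3 in C4-2B-MDVR and 39.2 in C4-2B (0.39), the C4-2B value being under the floor. All 4 names end in _x_at or _s_at, which marks possible binding of other transcripts. With the mean of its probe sets DLL3 was at 0.086, and with the next brightest at 0.28. Such disagreement was common: probe sets had opposite signs in 38.6% of the 5727 genes with several above the floor on both arrays.

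**Figure D2:**
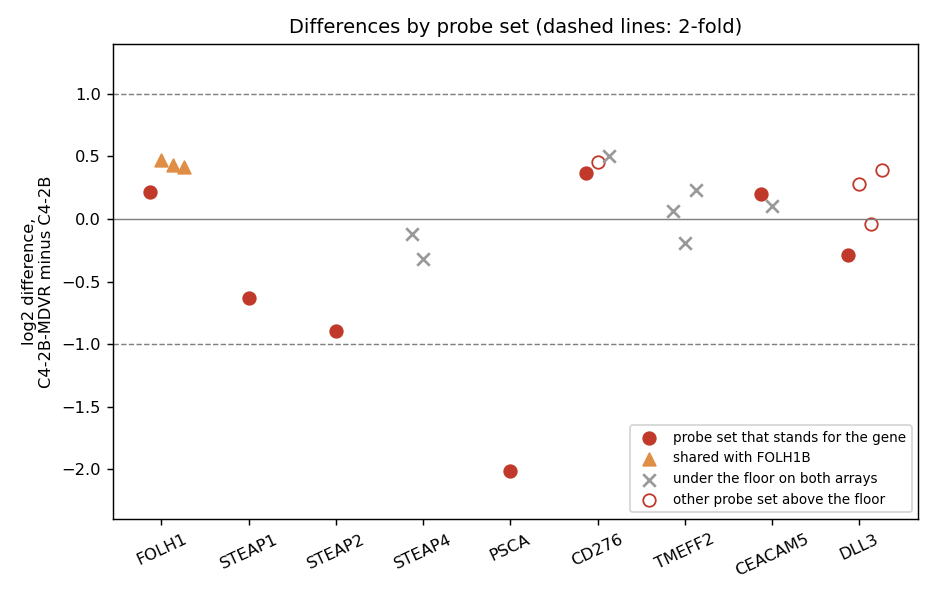
Log2 difference (C4-2B-MDVR minus C4-2B) of each probe set by gene, with the probe set that stands for the gene as a filled circle, others above the floor as open circles, those shared with FOLH1B as triangles and those under the floor on both arrays as crosses. The 4 FOLH1 readings lie from 0.21 to 0.47 and the 4 DLL3 readings on both sides of 0, and PSCA lies beyond the lower 2-fold line.

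**Figure D3:**
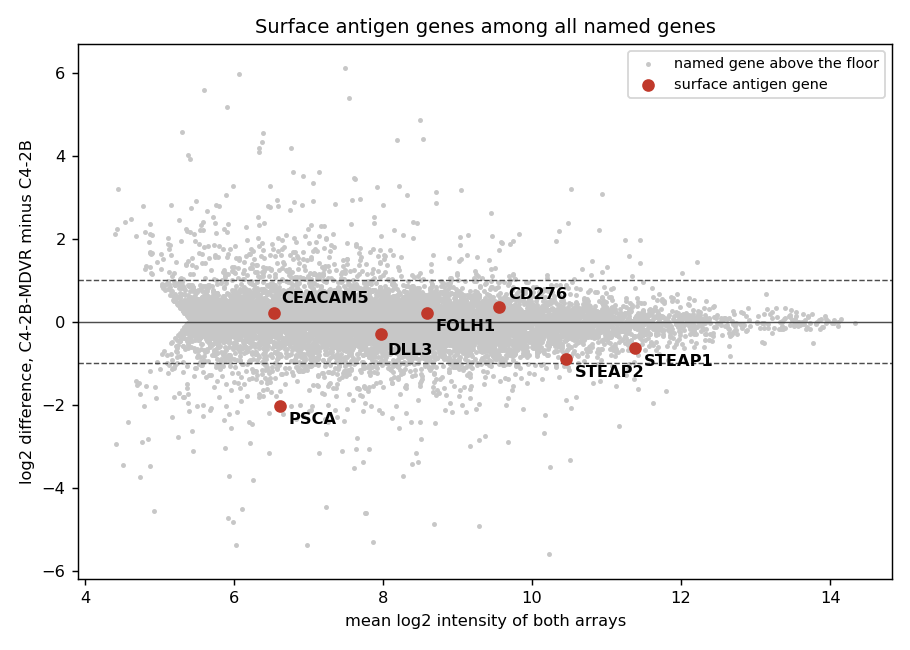
Log2 difference against mean log2 intensity for the 13437 named genes above the floor (grey) and the 7 surface antigen genes above it (red), with dashed lines at 2-fold. PSCA at −2.02 is the 1 red point beyond a line, and STEAP2 at −0.90 lies just inside it.

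The relatives of each antigen were read from 12 lists of families, pathways and other tumour targets, and from a list of neuroendocrine genes. These lists are described by counts and medians, to be read beside the background of 3.50% lower, 3.17% higher and a median of 0.041. In the STEAP family 4 of 5 genes were above the floor. STEAP1B, a relative of STEAP1 on the same chromosome, had 101.3 in C4-2B-MDVR and 40.6 in C4-2B, which was under the floor. With the C4-2B value raised to the floor it was 2.42-fold higher. Over the alternatives its log2 difference lay from 1.05 to 1.32. STEAP3, the metalloreductase of red cell precursors, had 468.1 in C4-2B-MDVR and 498.1 in C4-2B (−0.090). The family thus held 2 genes lower by less than 2-fold, 1 close to 0 and 1 that was 2-fold or more higher, with a median of −0.36.

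Genes that handle the iron and copper that STEAP proteins reduce were on both sides of 0, and the 6 that reached the floor had a median of 0.22. This median had no settled sign, and lay between −0.095 and −0.013 under 4 alternatives of floor or probe set. SLC40A1, the iron exporter ferroportin, had 85.2 in C4-2B-MDVR and 40.5 in C4-2B, and was 2.03-fold higher with the C4-2B value raised to the floor. It was within 2-fold with the mean of its probe sets (0.61), with loess scaling (just under 2-fold) and with 16 added before the log (0.84). The ferritin light chain FTL had 4221 in C4-2B-MDVR and 2649 in C4-2B (0.67), with its other probe set at 0.80. ACO1, an iron sensor in its RNA-binding form, was at 0.53, the iron importer SLC11A2 at −0.36 and the transferrin receptor TFRC at −0.28. With the mean of their probe sets ACO1 was at 0.11 and SLC11A2 at −0.028. For TFRC, 4 probe sets spanned −0.28 to 0.33, and its direction depends on which is used.

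In the list of FOLH1 and its relatives, 6 of 7 genes reached the floor. These included FOLH1 itself, FOLH1B and the transferrin receptors TFRC and TFR2. The median of the 6 was 0.34. By measured values 1 of them, NAALAD2, was 2-fold or more higher, but it was under 2-fold with its C4-2B value raised to the floor. This gene, whose product also cleaves N-acetylaspartylglutamate, had 73.7 in C4-2B-MDVR and 25.5 in C4-2B, which was under the floor. It was 1.76-fold higher with the C4-2B value raised to the floor, and at 0.13 when probe sets with several symbols were taken in. The iron sensor TFR2 was at 0.43 and NAALADL1 at 0.25. All 3 genes of N-acetylaspartylglutamate metabolism above the floor were higher by less than 2-fold, namely the synthases RIMKLB (0.67) and RIMKLA (0.67) and the N-acetylaspartate synthase NAT8L (0.37). In folate handling, 0 of 7 genes above the floor were beyond 2-fold and the median was 0.062. FPGS, which adds the glutamate chain to folate, was at −0.54 and the folate receptor FOLR1 at 0.42. The reduced folate carrier SLC19A1 was at −0.17, the proton-coupled folate transporter SLC46A1 at 0.15 and the mitochondrial serine hydroxymethyltransferase SHMT2 at 0.19. SLC19A1 probe sets ranged from −0.67 to 0.035 and those of SLC46A1 from −0.12 to 0.35.

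Within the Ly6 family that includes PSCA, 6 of 11 genes were above the floor, with a median of 0.29 that turned to −0.32 with a floor at the 75th percentile. LY6E, an interferon-inducible member, had 279.1 in C4-2B-MDVR and 515.3 in C4-2B (−0.88), and was the other member below 0. CD59, which protects cells from complement, had 931.4 in C4-2B-MDVR and 446.3 in C4-2B (1.06), with its 4 probe sets above the floor from 0.50 to 1.06. It was within 2-fold with the mean of probe sets (0.61), with the next brightest (0.86) and without _x_at and _s_at probe sets (0.50). PLAUR, the urokinase receptor, was at 0.37 and LYPD3 at 0.32. The 5 subunits of the transamidase that attaches the glycolipid anchor of PSCA and CEACAM5 were all above the floor and within 2-fold, from PIGT at 0.38 and PIGK at 0.37 to PIGS at 0.14, GPAA1 at −0.18 and PIGU at −0.20. PIGK probe sets ranged from −0.41 to 0.37.

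In the B7 family CD276 was the member with the highest difference among 6 genes above the floor, and 0 were beyond 2-fold. Without _x_at and _s_at probe sets ICOSLG was at 0.42, higher than CD276 at 0.37. NCR3LG1, a ligand of a natural killer cell receptor, had 73.0 in C4-2B-MDVR and 120.9 in C4-2B (−0.73). CD86, a T cell costimulator, was at 0.17, ICOSLG at 0.15 and CD274, the gene for PD-L1, at −0.079. In the CEACAM family 0 of 6 genes above the floor were beyond 2-fold, and CEACAM6 was at −0.25, CEACAM4 at 0.17, CEACAM1 at −0.038 and CEACAM19 at 0.026. Among TMEFF2 partners the sheddases ADAM17 (0.38) and ADAM10 (0.16) and the growth factor PDGFA (−0.20) were above the floor. Among Notch ligands 0 of 6 above the floor were beyond 2-fold, with JAG1 at −0.30, JAG2 at −0.22 and DLK2 at −0.12, and JAG1 probe sets from −0.30 to 0.30. DLK1, whose C4-2B value did not reach the floor, was 1.06-fold higher with that value raised to it. Of the neuroendocrine genes set beside DLL3, ENO2, a neuronal enolase, had 231.4 in C4-2B-MDVR and 33.2 in C4-2B, which was under the floor. It was 5.52-fold higher with the C4-2B value raised to the floor. Over the alternatives its log2 difference lay from 2.33 to 2.80. The adhesion protein NCAM1 was at 0.076. Synaptophysin SYP, whose C4-2B-MDVR value did not reach the floor, was 1.11-fold lower with that value raised to it. INSM1, POU3F2 and CHGA were under the floor on both arrays.

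Among 29 other tumour surface targets above the floor, 3 were 2-fold or more higher and 0 lower, with a median of 0.076. PTK7, a pseudokinase receptor of Wnt signalling, had 195.6 in C4-2B-MDVR and 86.4 in C4-2B (1.18). GPC3, a glypican of fetal liver and liver cancer, had 200.7 in C4-2B-MDVR and 90.0 in C4-2B (1.16). CDH3, placental cadherin, had 294.4 in C4-2B-MDVR and 137.1 in C4-2B (1.10). PTK7 (0.62) and GPC3 (0.59) were within 2-fold with the mean of their probe sets, while CDH3 has 1 probe set. The growth factor receptor ERBB2 had 850.4 in C4-2B-MDVR and 471.1 in C4-2B (0.85), and its second probe set above the floor was at 0.66. SLITRK6, a neuronal membrane protein, had 28.0 in C4-2B-MDVR, under the floor, and 50.3 in C4-2B. With the C4-2B-MDVR value raised to the floor it was 1.16-fold lower. Among targets above the floor on both arrays, and chosen after their values were seen, the zinc transporter SLC39A6 had 2081 in C4-2B-MDVR and 3624 in C4-2B (−0.80), with its 4 probe sets from −0.89 to −0.55. The growth factor receptor EGFR was at −0.66, with probe sets from −0.66 to 0.24, and SLC44A4 at −0.54, with probe sets from −0.54 to −0.28. In the other direction, and chosen in the same way, MET had 122.8 in C4-2B-MDVR and 77.3 in C4-2B (0.67). Its probe sets above the floor on both arrays ranged from 0.18 to 0.67. Of the 29 targets 18 were above 0 and 11 below it.

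**Figure D4:**
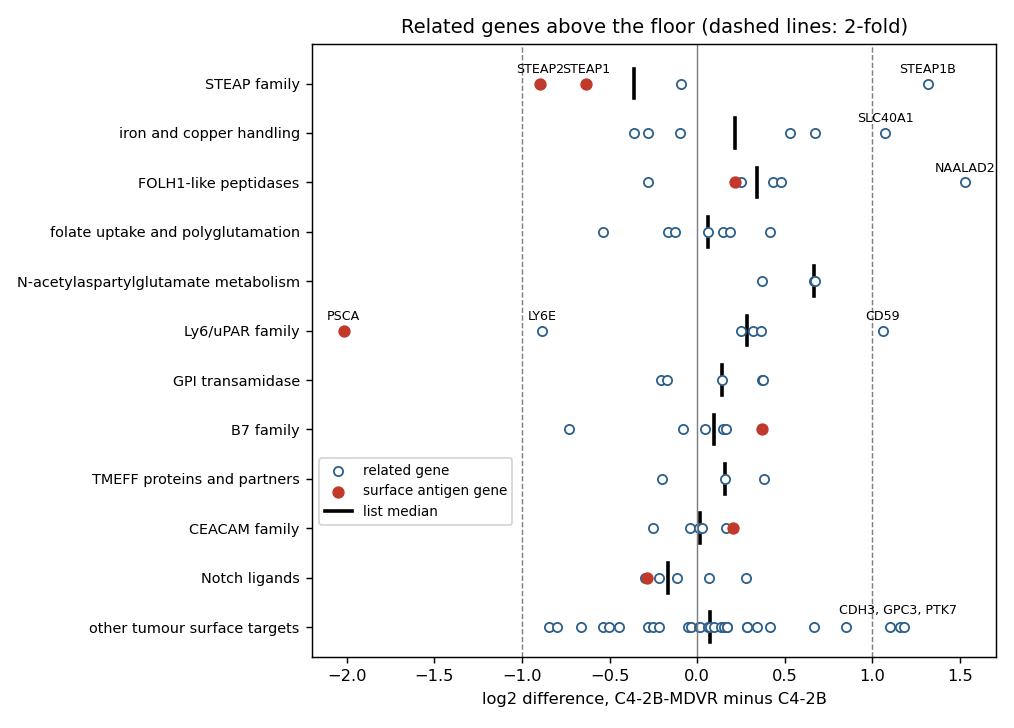
Log2 difference (C4-2B-MDVR minus C4-2B) of each gene above the floor in 12 lists, with the surface antigen genes in red, their relatives as open circles and each list's median as a bar. STEAP2 and STEAP1 lie left of 0 with STEAP1B beyond the right 2-fold line, and PSCA (−2.02) lies apart from the other Ly6 genes.

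Genes next to each antigen gene were read to see whether neighbours differed alike. Up to 3 named coding genes on each side in RefSeq order gave 44 neighbours, of which 27 were above the floor, with a median of −0.15. Of these 1 was 2-fold or more lower and 0 higher. This was STK17B, an apoptosis kinase near TMEFF2, with 51.0 in C4-2B-MDVR and 112.2 in C4-2B (−1.14), and −0.56 with its next brightest probe set. The neighbours named next were chosen after their values were seen. CFAP69, a cilium protein gene next to STEAP2, had 124.1 in C4-2B-MDVR and 70.3 in C4-2B (0.82), opposite to both STEAP genes. It was at 0.59 with its next brightest probe set and 0.46 with the mean. CLDN12, a claudin gene further along, had 561.1 in C4-2B-MDVR and 858.9 in C4-2B (−0.61). Around PSCA, THEM6 had 222.5 in C4-2B-MDVR and 434.2 in C4-2B (−0.96, or −1.02 with the arrays centred on their medians), and ARC, an activity-induced gene of neurons, had 43.8 in C4-2B-MDVR and 78.8 in C4-2B (−0.85). The other PSCA neighbours above the floor on both arrays were JRK (−0.24) and ADGRB1 (0.20), while SLURP1 did not reach it in C4-2B-MDVR. Next to CD276, the adhesion protein gene NPTN had 2255 in C4-2B-MDVR and 1601 in C4-2B (0.49). The neighbours of STEAP2 thus lay on both sides of 0. Of the PSCA neighbours above the floor, only ADGRB1 was above 0. All DLL3 neighbours above the floor were below 0, namely EID2B (−0.62), EID2 (−0.47), RPS16 (−0.16), TIMM50 (−0.16) and, close to 0, SUPT5H (−0.042). TIMM50 was at −0.37 with the mean of its probe sets and −0.59 with the next brightest. Near STEAP4, DBF4 was at −0.81, ADAM22 at 0.45 and SRI at 0.77, or 0.12 with the mean of its probe sets. Whether position plays a part was not tested.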

How the data were processed

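The authors deposited 1 table of processed probe set intensity values on a linear scale, as the range of its values shows. How they corrected the background, normalized and summarized the probes is not stated in what was used here. Total RNA was isolated with Trizol, amplified, fragmented and biotin-labelled, per the labels' protocols. The table held 54675 probe sets, 1 column for each of the 2 lines and 0 columns of other samples. From the deposited intensities log2 was taken with no further scaling. The platform annotation of 2016 gave 41097 probe sets 1 gene symbol and 1801 several, and 11777 were unnamed here. Of the single symbols 41043 matched RefSeq (GRCh38.p14) by gene identifier and 0 changed. No gene was named from a probe set with several symbols.

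Named genes were all 9 members, up to 5 genes above the floor per list with the largest absolute difference, and neighbours beyond 2-fold. Other neighbours, SLC39A6, EGFR, SLC44A4, MET, FOXA1, DLL4 and genes given as under the floor were named after their values were seen. Members and lists were chosen with earlier results of these data known. Alternatives changed the scaling (quantile normalization, centring on the array median, and loess, whose span was 0.3), the probe set, the floor (25th or 75th percentile, or none), the threshold (1.5-fold or 3-fold) and the log offset (16). The steps were tested on simulated data, with shifts put only into genes well above the floor. The added noise was smaller than the median spread of 0.19 between probe sets. This test therefore says nothing of genes near the floor, such as PSCA and CEACAM5. The number of arrays limits the precision. Some list genes were not analysed here. Python 3.11.15, numpy 2.4.6, pandas 2.3.3, statsmodels 0.14.6 and matplotlib 3.10.9 were used.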

Additional observations from a re-analysis of the deposited data

How the results depend on the processing

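PSCA was 2-fold or more lower under all 12 alternatives, from −2.08 to −1.72. Its value, like those of STEAP1 and STEAP2, could change only with the scaling or the log offset. Alternatives of probe set and floor returned the main value, because each of these genes has 1 probe set and lay above the floor. STEAP1 (−0.69 to −0.60), STEAP2 (−0.95 to −0.85), FOLH1 (0.16 to 0.47) and CD276 (0.32 to 0.45) kept their sign under all 12, and CEACAM5 (0.14 to 0.20) under the 10 that gave a value. Floor alternatives that gave a value returned the main one for FOLH1, CD276 and CEACAM5 too. FOLH1 has 1 probe set with its symbol alone, so its value moved only with the scaling, the offset or probe sets of several symbols. DLL3 kept its sign under 9 of 11, with 0.086 for the mean of probe sets and 0.28 for the next brightest. FOLH1 was at 0.47 with probe sets of several symbols. The count of surface antigen genes lower was 3 at 1.5-fold. Among all genes 426 were 2-fold or more higher and 470 lower. At 1.5-fold these were 1110 and 1252, and at 3-fold 195 and 161. A floor at the 75th percentile left 280 higher, and the mean of probe sets 302 lower. The median of the surface antigen genes was 0.086 with the mean of probe sets. That of the STEAP family was −0.63 with the 75th percentile floor and −0.12 with no floor. The iron and copper median was −0.095 with the 75th percentile floor, −0.013 with no floor, −0.040 with the next brightest probe sets and −0.095 without _x_at and _s_at probe sets, a setting added after seeing the data. The median of N-acetylaspartylglutamate genes was 0.41 and of transamidase genes −0.18 with the next brightest probe sets, of Ly6 genes −0.32 with the 75th percentile floor, and of Notch ligands 0.066 without _x_at and _s_at probe sets. The neuroendocrine median was 1.23 with the mean, with the next brightest and without _x_at and _s_at probe sets, and 2.80 with the 75th percentile floor. The main neuroendocrine median was 0.076 over 3 genes. The 1.23 is the midpoint of ENO2 (2.80) and SYP (−0.35), and 2.80 is ENO2 alone, so neither describes the list as a whole. The Notch value of 0.066 is that of DLL4. Any other cause of the changes in this section was not tested. No paired analysis was possible because each line has 1 array. STEAP4 and TMEFF2 were under the floor in every probe set, so no direction is given for them.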
